A study of Daucus carota with 18 samples.

Results

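The genes described here are 4 WRKY and 2 NAC transcription factor genes of carrot, the homologs of WRKY23 (DCAR_026990), WRKY65 (DCAR_005143), WRKY71 (DCAR_005083) and WRKY35 (DCAR_007815) and 2 homologs of NAC100 (DCAR_016858 and DCAR_019896). They are 6 of the 32113 genes in the files and 6 of the 14 WRKY and NAC genes that the study listed. They were chosen because their transcripts were higher in the purple outer phloem (POP) than in the non-purple inner phloem (NPIP) of the same carrot roots in every set of roots. That difference is therefore given only as a description, without a test. The tests below compare the same tissue between sets, a contrast that the choice did not use. The choice did use the same libraries and asked for higher levels in POP in every set. These comparisons are therefore not wholly free of it.

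The files cover 18 libraries, from POP and NPIP of 9 field-grown taproots, with 3 roots in each of 3 sets. The sets dP2 and dP1 had dark purple outer phloem with a high anthocyanin concentration, and pP had pale purple outer phloem with a low one. The inner phloem lacked purple colour throughout, and purple xylem was found in the dP2 roots alone. A single segregating F2 family, raised at El Centro (California), gave dP1 and pP, whereas dP2 belonged to its sibling family, raised at Hancock (Wisconsin). The set, the family and the site of dP2 can therefore not be told apart. Each library holds 1 dissected tissue of 1 root, so the replicates are separate plants.

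WRKY proteins are plant transcription factors named for the WRKY residues of their DNA-binding domain, which recognizes the W-box motif in the promoters of many defence and stress genes. NAC proteins are another plant-specific family, with a conserved DNA-binding domain at the N-terminus and members that act in development, wall formation, senescence and stress. In Arabidopsis, WRKY23 responds to auxin and acts on flavonol synthesis and root patterning, WRKY71 promotes shoot branching, and NAC100 is a target of the microRNA miR164. The roles of the carrot homologs are not given in the files. In the study's family trees, none of its WRKY and NAC genes grouped with known anthocyanin regulators, and it dropped them as candidates.

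Library totals ran between 6918267 and 9133313 expected counts, with a median of 8485502.5, and all 6 genes had whole counts in all 18 libraries, so no read of theirs was divided among genes. Levels are counts scaled to library size (CPM) normalized by TMM, and 3 reads of a library are worth 0.329 to 0.434 CPM before that normalization, so inner phloem levels near or under these values rest on a few reads. Cell type markers were chosen with earlier results of these data known, so their direction is no independent check of the dissection. The 3 homologs of APL, a phloem identity regulator, summed to 0.534 to 12.4 CPM in POP and to 11.3 to 86.4 CPM in NPIP. These sums did not overlap within any set. The regulator KNAT7 and an IRX-like gene of the secondary wall summed to 8.71 to 43.7 CPM in POP and 0.464 to 6.84 CPM in NPIP. The MYB39 homolog, the only gene measured here for suberized outer layers, had 8.53 to 24.5 CPM in POP and 0 to 1.56 CPM in NPIP. These cell type markers moved with the same tissue contrast as the 6 genes, and their part in the values below was not tested. In dissected tissue, more cells of a type cannot be told apart from more RNA per cell.

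All 6 genes were readily detected in outer phloem, at 1.10 to 44.8 CPM over all POP libraries, and were low in inner phloem, at 0 to 4.09 CPM over all NPIP libraries. No POP library overlapped with an NPIP library of its set for any of them, in any of the 3 sets. Of all genes tested, 19.0% in dP2, 20.3% in dP1 and 14.7% in pP were higher in POP without overlap. In the comparison by root number, all 6 were higher in POP in 9 of 9 roots, as were 11.0% of the 20253 genes tested across all libraries. The choice of the genes fixed these counts, so nothing is read from them.

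**Figure D1:**
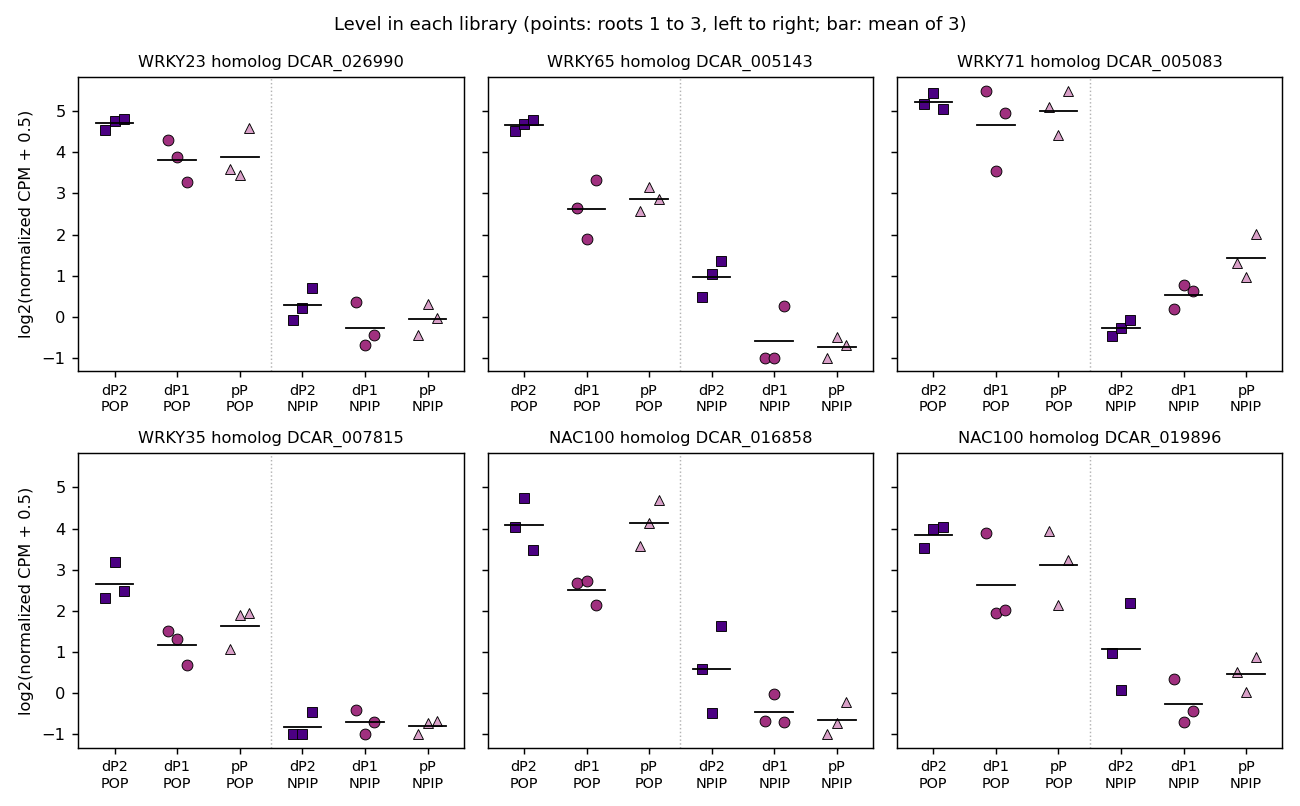
Normalized level of each of the 6 genes in each of the 18 libraries, as log2(CPM + 0.5), with POP of dP2, dP1 and pP on the left and NPIP of the same sets on the right. Points are single roots and bars are means of 3. Every POP point lies above every NPIP point of its gene except for DCAR_019896. Its POP libraries at 3.34 and 3.54 CPM (dP1) and 3.89 CPM (pP) lie under its highest NPIP library (4.09 CPM, dP2).

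DCAR_026990, the WRKY23 homolog, lies on chromosome 8 of carrot genome assembly v2.0, at 26935336 to 26937119, with a gene model of 1395 nt. In POP it had 22.8, 26.6 and 27.6 CPM in dP2, 19.1, 14.4 and 9.15 CPM in dP1 and 11.6, 10.3 and 23.5 CPM in pP. In NPIP it had 0.448, 0.666 and 1.14 CPM in dP2, 0.780, 0.120 and 0.235 CPM in dP1 and 0.232, 0.736 and 0.487 CPM in pP. Its dP2 outer phloem libraries were close to each other and all above those of dP1, whereas 1 pP root reached the dP2 level. The log2 fold change (log2FC) of POP over NPIP was 5.07 (SE 0.36) in dP2, 5.23 (SE 0.62) in dP1 and 4.93 (SE 0.55) in pP. These 3 values lay within 1 SE of each other, and 4.93 was the highest smallest value of any of the 14 WRKY and NAC genes.

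DCAR_005143, the WRKY65 homolog, lies on chromosome 2 at 7327523 to 7328766, with a gene model of 810 nt. In POP it had 22.5, 25.1 and 27.0 CPM in dP2, 5.79, 3.23 and 9.51 CPM in dP1 and 5.48, 8.44 and 6.78 CPM in pP. In NPIP it had 0.897, 1.55 and 2.05 CPM in dP2, 0, 0 and 0.705 CPM in dP1 and 0, 0.210 and 0.122 CPM in pP. In both tissues the 3 dP2 roots were the 3 highest, without overlap with the other sets. POP over NPIP was 4.04 (SE 0.34) in dP2 and 4.62 (SE 1.02) in dP1 on the log2 scale. In pP, 169 POP reads stood against 3 NPIP reads, a ratio of 60.5 with an exact 95% interval of 20.4 to 296.4 that covers counting error only.

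DCAR_005083, the WRKY71 homolog, lies on chromosome 2 at 6117651 to 6120150, with a gene model of 918 nt. In POP it had 35.4, 42.6 and 32.4 CPM in dP2, 44.2, 11.3 and 30.5 CPM in dP1 and 33.7, 20.8 and 44.8 CPM in pP. In NPIP it had 0.224, 0.333 and 0.455 CPM in dP2, 0.650, 1.20 and 1.06 CPM in dP1 and 1.97, 1.47 and 3.53 CPM in pP. The outer phloem levels of the sets overlapped, whereas the inner phloem levels fell into 3 separate ranges, lowest in dP2 and highest in pP. The log2FC of POP over NPIP was 6.71 (SE 0.31) in dP2, 4.89 (SE 0.59) in dP1 and 3.84 (SE 0.45) in pP. The order of these 3 values is that of the inner phloem levels turned round, and the difference between sets in POP over NPIP was not tested.

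DCAR_007815, the WRKY35 homolog, lies on chromosome 2 at 37302161 to 37304416, with a gene model of 1329 nt. In POP it had 4.47, 8.67 and 5.05 CPM in dP2, 2.37, 2.01 and 1.10 CPM in dP1 and 1.60, 3.22 and 3.34 CPM in pP. Its NPIP libraries held 2 reads in all in dP2, 3 in dP1 and 2 in pP, so inner phloem levels of this gene cannot be compared between sets at this depth. The ratio of POP over NPIP was 80.3 in dP2 (147 reads against 2, 95% interval 21.8 to 669.4), 14.9 in dP1 (45 against 3, 4.77 to 74.8) and 36.5 in pP (68 against 2, 9.73 to 307.7). These intervals cover counting error only, not the spread between roots, and those of the 3 sets overlapped. Its smallest log2FC over the sets, 3.76, was the lowest among the WRKY members. The next of the listed WRKY genes, the WRKY6 homolog DCAR_019758, had 3.19 (SE 0.54).

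DCAR_016858, one of the NAC100 homologs, lies on chromosome 5 at 8439334 to 8441547, with a gene model of 1134 nt. In POP it had 16.1, 26.5 and 10.6 CPM in dP2, 5.92, 6.13 and 3.90 CPM in dP1 and 11.5, 17.0 and 25.3 CPM in pP. In NPIP it had 1.01, 0.222 and 2.61 CPM in dP2, 0.130, 0.479 and 0.117 CPM in dP1 and 0, 0.105 and 0.365 CPM in pP. It was the only one of the 6 whose outer phloem mean was highest in the pale set, at 17.9 ± 6.93 CPM in pP, beside 17.7 ± 8.10 CPM in dP2 and 5.32 ± 1.23 CPM in dP1 (SD, n = 3 each). The log2FC of POP over NPIP was 3.77 (SE 0.78) in dP2, 4.39 (SE 0.58) in dP1 and 6.76 (SE 0.73) in pP, the last against 4 NPIP reads in all.

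DCAR_019896, the other NAC100 homolog, lies on chromosome 6 at 35934254 to 35937203, with a gene model of 1281 nt. In POP it had 11.1, 15.4 and 15.9 CPM in dP2, 14.5, 3.34 and 3.54 CPM in dP1 and 15.0, 3.89 and 8.98 CPM in pP. In NPIP it had 1.46, 0.555 and 4.09 CPM in dP2, 0.780, 0.120 and 0.235 CPM in dP1 and 0.928, 0.525 and 1.34 CPM in pP. Over all groups, its biological coefficient of variation between roots was 0.60, against 0.354 to 0.496 for the other 5. Its roots were not the most variable in each group, since its coefficient of variation of CPM was 18.6% in dP2 POP, against 45.7% for DCAR_016858. The log2FC of POP over NPIP was 2.78 (SE 0.66) in dP2, 4.23 (SE 0.90) in dP1 and 3.32 (SE 0.61) in pP, and 2.78 was the smallest value of the 6 genes in any set.

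Compared per length by the deposited TPM, the WRKY71 homolog was the most abundant in outer phloem, with a median of 33.7 TPM over 9 libraries and a range of 12.0 to 51.9 TPM. The medians of the next 4 genes lay close together, at 12.2 TPM for the WRKY23 homolog, 11.1 TPM for the WRKY65 homolog, 9.1 TPM for DCAR_016858 and 7.99 TPM for DCAR_019896. Their ranges overlapped, so this order is not fixed by the libraries. The WRKY35 homolog was lowest, with a median of 2.54 TPM and a range of 0.74 to 5.99 TPM. In inner phloem the medians ran between 0.09 TPM for the WRKY35 homolog and 1.29 TPM for the WRKY71 homolog.

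**Figure D2:**
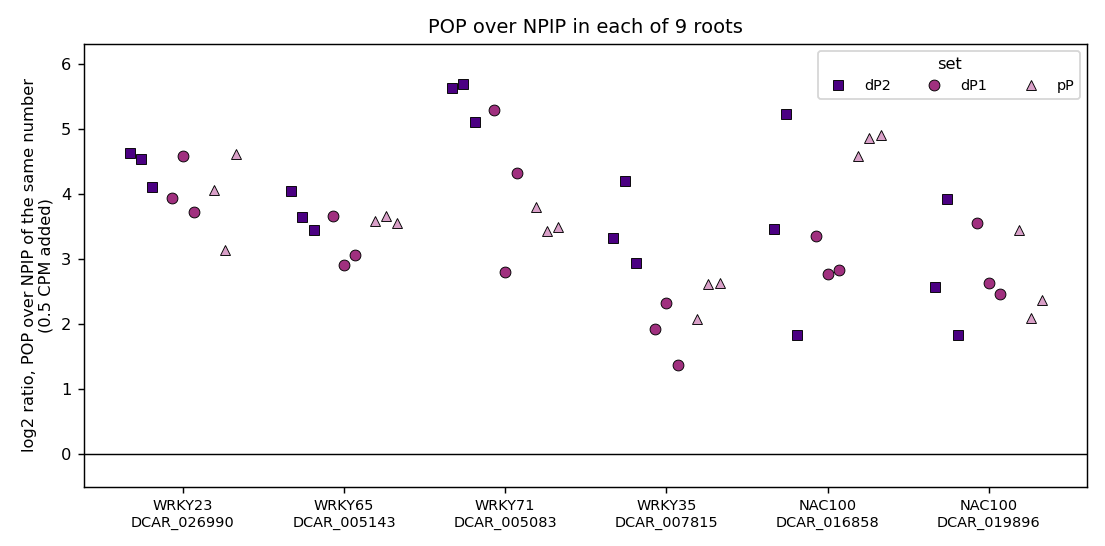
Log2 ratio of POP over NPIP for libraries of the same number, after adding 0.5 CPM to both, for each of the 6 genes in the 9 roots. Points are single roots, with dP2, dP1 and pP from left to right for each gene. All 54 ratios lie above 0, between 1.37 (WRKY35 homolog, dP1) and 5.69 (WRKY71 homolog, dP2).

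Root by root, the log2 ratio with 0.5 CPM added, which understates the contrast of low genes, varied least for the WRKY65 homolog. It ran between 2.90 and 4.04, with a median of 3.58 over the 9 roots. It varied most for DCAR_016858, between 1.83 in dP2 root 3 and 5.23 in dP2 root 2, so both extremes of this NAC100 homolog came from a single set. DCAR_019896 had its lowest and highest ratios in the same 2 roots, at 1.83 and 3.92. In dP2 root 3 the NPIP library held the highest level of its group for all 6 genes. Summed over them, it had 10.6 CPM, against 4.04 and 3.33 CPM in the other dP2 NPIP libraries. Its 7 pigment genes summed to 14.3 CPM, against 7.18 and 7.44 CPM in the other two, its APL sum of 58.4 CPM stood against 61.2 and 86.4 CPM, and its secondary wall sum of 5.46 CPM lay between those of the other libraries. The part of any of these in the result was not tested. The ratio was lowest in this root for 2 of the 6 genes and for 6 of the 8 other WRKY genes. In pP the numbers of POP and NPIP libraries may not mark the same root, as described with the processing, but since POP and NPIP did not overlap, any pairing gives ratios above 0.

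Between the sets, the outer phloem was compared first for dP1 and pP, a dark and a pale set of the same family and site. All 6 genes had a lower fitted level in dP1 than in pP, with a median log2FC of −0.30, and none passed the threshold of FDR under 0.05 in edgeR's quasi-likelihood test, where 1.33% of all 20253 genes did. DESeq2 and edgeR's likelihood ratio test also called 0 of the 6. The NAC100 homolog DCAR_016858 was the only one at an unadjusted p under 0.05, as were 14.6% of all genes. It was 3.37-fold lower by the group means, at 3.90 to 6.13 CPM in dP1 POP and 11.5 to 25.3 CPM in pP POP, without overlap (log2FC −1.75, SE 0.62, FDR = 0.191 in edgeR). Of all genes, 17.8% did not overlap in this comparison. For the WRKY23, WRKY65 and WRKY71 homologs the log2FC was −0.10 (SE 0.43), −0.16 (SE 0.59) and −0.21 (SE 0.41), and it was above 0 for each in 2 of the 6 fits that left 1 library out, up to 0.37, 0.15 and 0.17. None of the 6 was thus shown to differ between dark and pale outer phloem of this family.

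In dP2 against pP, the WRKY65 homolog was the only one of the 6 called, beside 31.1% of all genes. It was higher in dP2 POP, at 24.9 ± 2.30 CPM, than in pP POP, at 6.9 ± 1.49 CPM (SD, n = 3 each), with a log2FC of 1.85 (SE 0.60) and an edgeR FDR of 0.0288. The 6 libraries did not overlap. The call did not hold without any one of pP POP replicates 1 and 3 and dP2 POP replicates 2 and 3, with FDR between 0.0492 and 0.0848 over the 6 fits that left 1 library out. The WRKY35 homolog also did not overlap, at 6.06 ± 2.28 CPM in dP2 and 2.72 ± 0.97 CPM in pP, and was not called (log2FC 1.15, SE 0.62, FDR = 0.171). Without overlap were 2 of the 6 genes and 46.7% of all genes. The WRKY23 homolog had a log2FC of 0.76 (SE 0.43, FDR = 0.197), and was called with the root as a random effect (limma-voom FDR = 0.0476).

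In dP2 against dP1, the 2 dark sets, all 6 genes had a higher fitted level in dP2, and 3 were called, beside 33.5% of all genes. The WRKY65 homolog had 24.9 ± 2.30 CPM in dP2 POP and 6.18 ± 3.16 CPM in dP1 POP (log2FC 2.01, SE 0.60, edgeR FDR = 0.0186). The WRKY35 homolog had 6.06 ± 2.28 CPM in dP2 POP and 1.82 ± 0.65 CPM in dP1 POP (log2FC 1.73, SE 0.63, FDR = 0.0474). The third was DCAR_016858, with 17.7 ± 8.10 CPM in dP2 POP and 5.32 ± 1.23 CPM in dP1 POP (log2FC 1.73, SE 0.62, FDR = 0.0414). A share of 3 in 6 is near the background of this comparison. The WRKY65 call was lost without dP1 POP replicate 1 or 2 (FDR up to 0.0684). The WRKY35 call was lost without any one of the 6 libraries (FDR between 0.0536 and 0.178), and that of DCAR_016858 without any but dP2 POP replicate 3 (FDR between 0.0389 and 0.169). Both were also lost when genes of low count were kept (FDR = 0.0679 and 0.0525). The WRKY23 homolog did not overlap either, at 22.8 CPM or more in dP2 and 19.1 CPM or less in dP1, with a log2FC of 0.86 (SE 0.43, FDR = 0.142), and was called with the root as a random effect (limma-voom FDR = 0.0277). Without overlap were 4 of the 6 genes and 47.7% of all genes. The WRKY71 homolog differed least, with a log2FC of 0.36 (SE 0.41). Cell type markers moved with dP2 as well. The secondary wall genes summed to 28.4 to 43.7 CPM in dP2 POP, against 8.90 to 18.9 CPM in dP1 POP and 8.71 to 18.7 CPM in pP POP, and the APL homologs to 5.77 to 12.4 CPM, against 1.18 to 4.01 and 0.534 to 3.35 CPM, without overlap with dP2. The MYB39 homolog and the pigment sum of dP2 POP overlapped with both other sets. The part of these markers in the differences of dP2 POP from dP1 and pP was not tested.

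**Figure D3:**
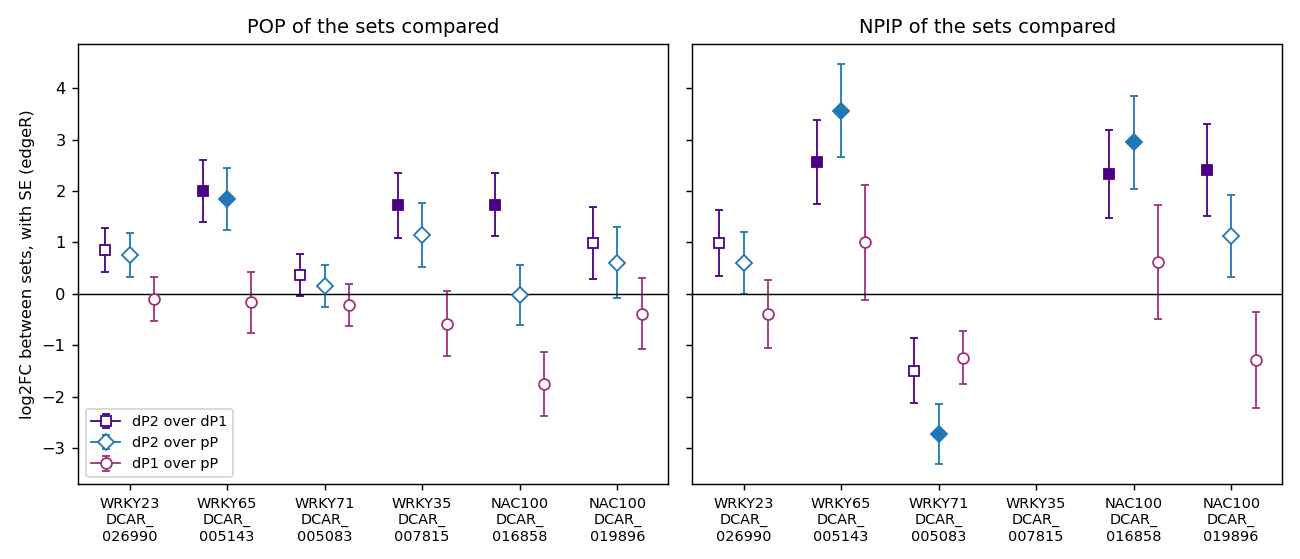
Log2FC between sets with its SE for the 6 genes, in POP (left) and NPIP (right), from 1 edgeR fit of 18 libraries. Squares are dP2 over dP1, diamonds dP2 over pP and circles dP1 over pP, and filled symbols mark FDR under 0.05. Of the outer phloem values, 4 are called, all of dP2 and all above 0, and none of the circles is filled. The WRKY35 homolog has no inner phloem value because its sets held 3 reads or fewer, and the WRKY65 values over pP rest on 3 pP reads.

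In the inner phloem the WRKY71 homolog was the only one of the 6 called lower in dP2. It was lower in dP2 NPIP, at 0.337 ± 0.115 CPM, than in pP NPIP, at 2.32 ± 1.07 CPM (9 against 60 reads, log2FC −2.72, SE 0.59, edgeR FDR = 0.00265), and the libraries did not overlap. The call held without any 1 library (FDR between 0.00292 and 0.0141), but not with the root as a random effect (limma-voom FDR = 0.0950). Against dP1 NPIP (0.968 ± 0.284 CPM, 24 reads), the dP2 level was also lower without overlap, and the difference was not called (log2FC −1.49, SE 0.64, FDR = 0.0737). Of all genes, 35.2% were called in dP2 over pP and 41.3% in dP2 over dP1, and 46.7% and 51.9% did not overlap. dP1 NPIP lay under pP NPIP without overlap too (log2FC −1.24, SE 0.52, FDR = 0.188). That comparison called 0 of the 6 genes in edgeR, DESeq2 and the likelihood ratio test, beside 4.57% of all genes, and this was the only member with an unadjusted p under 0.05, which 20.5% of all genes had. The groups of 25.6% of all genes did not overlap there.

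The WRKY65 homolog went the other way, with 40 reads in dP2 NPIP against 3 in pP NPIP and 6 in dP1 NPIP. The ratio of dP2 over pP was 13.2, with an exact 95% interval of 4.19 to 66.5 for counting error. It was called (edgeR FDR = 0.00736), also without any 1 library (FDR between 0.00794 and 0.0314) and with the root as a random effect (FDR = 0.00695). It passed the filter on low counts only through its POP libraries, where it was chosen to be high. With NPIP libraries alone the filter removed it, so its inner phloem calls could not be checked within that tissue. Over dP1 the log2FC was 2.56 (SE 0.82, FDR = 0.0217). The comparison with dP1 lost its call without dP1 NPIP replicate 1 (FDR = 0.0718) or 2 (0.0683) or dP2 NPIP replicate 3 (0.0640). Without dP1 NPIP replicate 3, which held all 6 dP1 reads, no fold can be given. Markers moved with these inner phloem comparisons too. The APL homologs summed to 58.4 to 86.4 CPM in dP2 NPIP, against 19.9 to 28.3 CPM in dP1 NPIP and 11.3 to 14.6 CPM in pP NPIP. The secondary wall genes summed to 5.11 to 6.84 CPM, against 0.587 to 1.68 and 0.464 to 3.05 CPM, and the pigment genes to 7.18 to 14.3 CPM, against 14.8 to 103.8 and 14.6 to 25.95 CPM, none of them overlapping with dP2. The MYB39 homolog overlapped between the sets. The part of these markers in the dP2 NPIP values of any of the 6 genes was not tested.

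Both NAC100 homologs had their highest inner phloem means in dP2. DCAR_016858 was called over pP (34 against 4 reads, log2FC 2.95, SE 0.91, edgeR FDR = 0.0207) and over dP1 (34 against 6 reads, log2FC 2.32, SE 0.86, FDR = 0.0410). DCAR_019896 was called over dP1 (54 against 9 reads, log2FC 2.41, SE 0.89, FDR = 0.0415) and not over pP (54 against 24 reads, log2FC 1.13, SE 0.79, FDR = 0.286). In each of these comparisons the libraries overlapped. All 3 calls turned on dP2 NPIP replicate 3, the library named above. Without it, the log2FC of DCAR_016858 was 1.89 over pP (FDR = 0.141) and 1.26 over dP1 (FDR = 0.288), and that of DCAR_019896 over dP1 was 1.38 (FDR = 0.261). The first was also lost without pP NPIP replicate 1 (log2FC 2.41, FDR = 0.0734) or 2 (2.74, 0.0660), and was 4.21 without pP NPIP replicate 3. The second was lost without dP1 NPIP replicate 1 (2.06, 0.121) or 3 (2.0, 0.126) or dP2 NPIP replicate 1 (2.47, 0.0526). The third was lost without dP1 NPIP replicate 2 (1.99, 0.129) or 3 (2.16, 0.120). None of the 3 was called with the root as a random effect (limma-voom FDR = 0.132, 0.249 and 0.143). DCAR_016858 too passed the filter on low counts only through its POP libraries, where it was chosen to be high. With NPIP libraries alone the filter removed DCAR_016858, whereas DCAR_019896 was kept and lost its call over dP1. The WRKY23 homolog, at 0.751 ± 0.352 CPM in dP2 NPIP and 0.378 ± 0.352 CPM in dP1 NPIP, was called only without dP1 NPIP replicate 1 (FDR = 0.0482). The 3 of 6 genes called in each of these inner phloem comparisons are again near the share of all genes.

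Across the 6 groups, all 6 genes had their 3 POP means above their 3 NPIP means, as did 10.6% of all genes. The choice of the genes largely fixed this count, so nothing is read from it. The POP means ran dP2, pP, dP1 from high to low for 5 of the 6 genes, and pP, dP2, dP1 for DCAR_016858. In this order pP and dP1 overlapped for 5 genes, and dP2 and pP for 4. The highest POP mean was 1.28 times the lowest for the WRKY71 homolog and 4.03 times the lowest for the WRKY65 homolog, with the other genes between. The WRKY71 and WRKY65 homologs were also the pair of members with the least similar pattern. Their root mean square difference over the 18 libraries was 1.30 on the log2(CPM + 0.5) scale, each gene centred on its own mean, against 0.75 for the most similar pair, the WRKY23 homolog and DCAR_016858. Members were not each other's nearest genes by this measure. The gene nearest to DCAR_016858 was DCAR_021919, a bHLH25 homolog of another transcription factor family, at 0.46. It had 34.5 CPM in dP2 POP, 5.84 CPM in dP1 POP and 25.2 CPM in pP POP, and 2.0, 0.403 and 0.201 CPM in NPIP of the same sets. DCAR_008528, for which the sources used here gave no description, was the second nearest to both the WRKY23 homolog (0.58) and the WRKY71 homolog (0.62). The nearest gene of the WRKY35 homolog was DCAR_012872, also without a description (0.38). The median over all genes ran between 1.53 for the WRKY35 homolog and 2.38 for the WRKY71 homolog.

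The 6 genes were set beside 7 genes of anthocyanin synthesis and modification (CHS, CHI, F3H, F3'H, DFR, DcUGalT1 and DcUCGXT1), which make or decorate the pigment. The pigment genes summed to 468 to 1185 CPM in dP2 POP, 109 to 7294 CPM in dP1 POP and 167 to 949 CPM in pP POP, and to 7.18 to 103.8 CPM in NPIP. Within dP1 POP the summed level of the 6 genes, of which the WRKY71 homolog is the largest part, ran opposite to the pigment sum. Replicate 1, with 109 CPM of the pigment genes, had 91.8 CPM summed over the 6 genes, replicate 3 had 1750 and 57.7 CPM, and replicate 2 had 7294 and 40.3 CPM. By gene, only the WRKY71 homolog and DCAR_019896 followed that order of roots. For DCAR_019896, replicates 3 and 2 were nearly tied, at 3.54 and 3.34 CPM (29 and 30 reads). DCAR_016858 was highest in replicate 2 and the WRKY65 homolog in replicate 3, and the WRKY23 and WRKY35 homologs were highest in replicate 1 and lowest in replicate 3. In pP POP, replicate 2 had the highest pigment sum and the lowest sum of the members, at 949 and 63.7 CPM. Replicate 1 had 167 and 78.8 CPM and replicate 3 had 348 and 113 CPM, so between these roots both sums rose together. In dP2 POP the replicate with the lowest pigment sum also had the lowest member sum, at 468 and 112 CPM. With 3 roots a set, and sets that differ in family and site, no correlation is given.

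**Figure D4:**
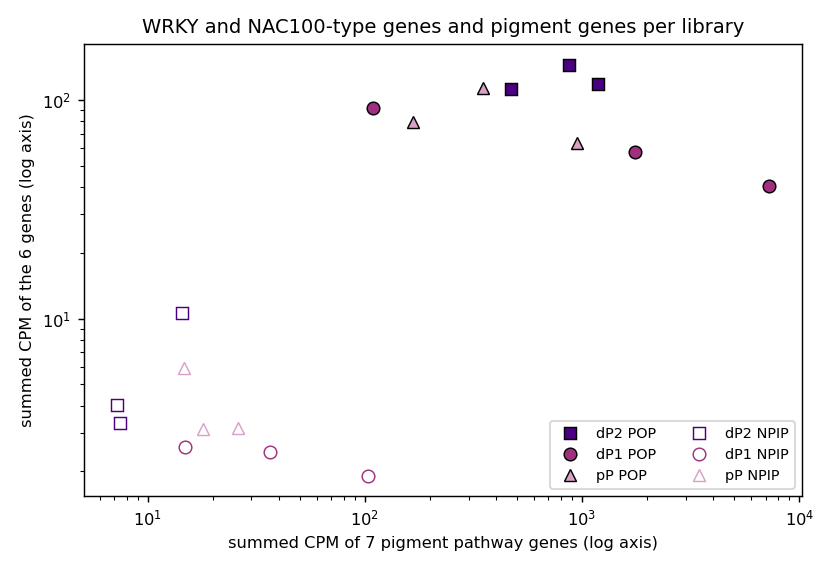
Summed CPM of the 6 WRKY and NAC100-type genes (vertical log axis) against the summed CPM of 7 pigment pathway genes (horizontal log axis) in each of the 18 libraries. Filled symbols are POP and open symbols NPIP. The 9 POP libraries lie between 40.3 and 144.9 CPM of the members while their pigment sums span 109 to 7294 CPM.

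The other 8 WRKY genes that the study listed give the background within the family. They were themselves chosen on these libraries for higher levels in POP, so their counts are no independent evidence of that direction. The study, with a negative binomial model, reported them as differentially expressed in every set. In the quasi-likelihood test used here, 4 of them were called higher in POP in dP2, all 8 in dP1 and 5 in pP. With edgeR's likelihood ratio test the counts were 7 in dP2 and 8 in pP. In no set were any called lower, a count of 0. The shares called higher among all genes were 8.22%, 11.5% and 4.89% in the same order, and 3.66%, 7.41% and 1.35% were called lower. Each of the 8 was higher in POP in 9 of 9 roots. Their median log2FC was 2.68 in dP2, 5.06 in dP1 and 2.92 in pP, beside 4.56, 4.50 and 4.93 for the 6 members and −0.03 to 0.00 for all genes. By the smallest value over the sets, the 4 WRKY members and DCAR_016858 held the first 5 places of the 14 genes. DCAR_019896 was the eighth. The members were chosen on this same contrast in these libraries, so nothing is read from that order. Called in all 3 sets by the quasi-likelihood test were the WRKY6 homologs DCAR_004233, DCAR_019758 and DCAR_019267 and the WRKY41 homolog DCAR_027713. WRKY6 acts in senescence and defence in Arabidopsis.

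DCAR_004233 had the highest mean level per length of the 14 genes in dP2 POP, with 246 TPM, beside 43.1 TPM in dP1 POP and 42.7 TPM in pP POP. On the CPM scale it had 465 CPM in dP2 POP, 82.5 CPM in dP1 POP and 74.5 CPM in pP POP, and with 88.4, 2.66 and 9.80 CPM in NPIP of the same sets. Its mean in dP2 NPIP, 49.5 TPM, was above the mean of every member in any POP group, the highest of which was 38.1 TPM for the WRKY71 homolog in dP2. DCAR_019267 went the other way and had 13.8 CPM in dP2 POP, 61.2 CPM in dP1 POP and 48.1 CPM in pP POP, and 0.224, 14.3 and 16.3 CPM in NPIP. The WRKY50 homolog DCAR_000809 had 192 POP reads and 0 NPIP reads in dP1, which is at least 63.0-fold higher in POP against a floor of 3 reads over the group. With that gene at its bound, the dP1 median of the 8 genes is 5.06 as well.

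**Figure D5:**
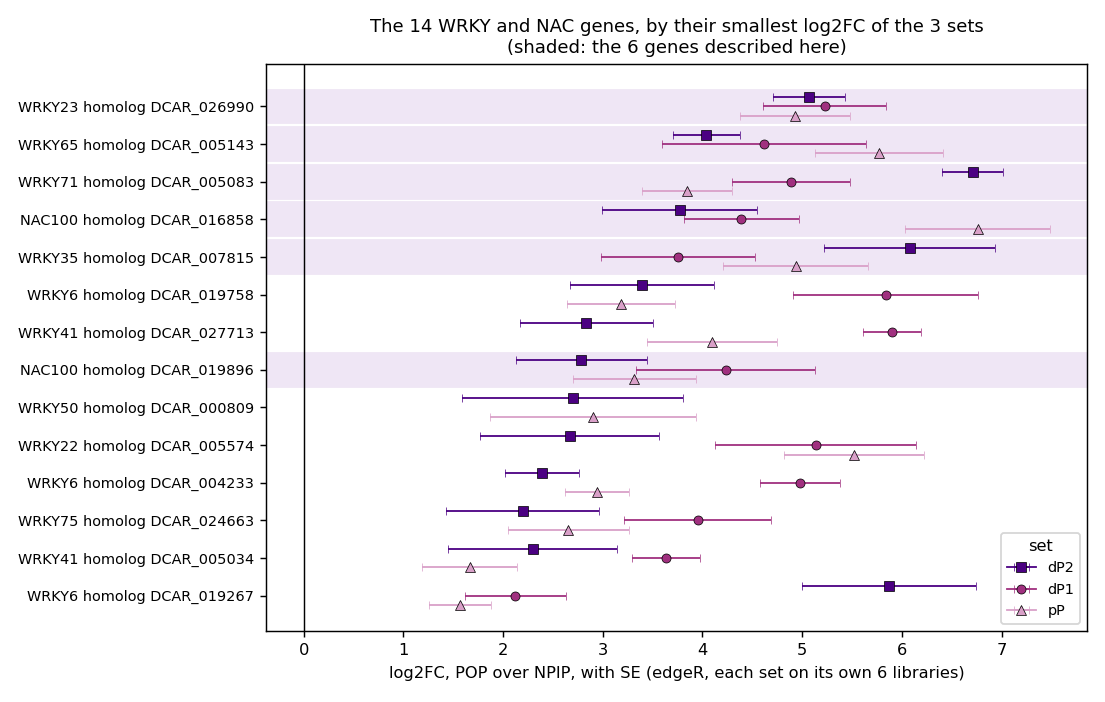
Log2FC of POP over NPIP with its SE in dP2 (squares), dP1 (circles) and pP (triangles) for the 14 WRKY and NAC genes, ordered from top to bottom by the smallest value of the 3 sets. Shaded rows are the 6 genes described here, which hold the first 5 places and the eighth. DCAR_000809 has no dP1 point because its dP1 NPIP libraries held 0 reads, and the pP value of the WRKY65 homolog, the 3 values of the WRKY35 homolog and the dP1 value of DCAR_019758 rest on 3 NPIP reads or fewer.

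With the root as a block, the calls among the 8 genes were 5 in dP2 and 6 in pP. The WRKY41 homolog DCAR_005034 was then called in dP2 (edgeR FDR = 0.0367, against 0.136 without the block) and in pP (0.0214, against 0.0943), and the WRKY75 homolog DCAR_024663 in pP (0.0395, against 0.0540), while DCAR_027713 lost its pP call (0.0505, against 0.0193). The 3 changes in pP rest on replicate numbers that may not mark the same root there. The counts also turned on single libraries. In dP2, 8 of the 8 genes were called without NPIP replicate 3, and 0, 1, 1 and 2 without NPIP replicate 2 and POP replicates 2, 3 and 1. In pP the count was 1 without NPIP replicate 1, 2 without NPIP replicate 2 or POP replicate 3, and 3 without NPIP replicate 3 or POP replicate 1.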

How the data were processed

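RNA of 18 carrot root tissue samples was sequenced single-end. Per the labels and the methods, the authors checked reads with FastQC, trimmed them with Trimmomatic 0.32 and estimated reads per gene of the V1.0 annotation with RSEM and Bowtie2. The authors deposited expected counts, not normalized, and TPM, which is scaled to library size and gene length. RSEM divides reads that fit several genes, and strand was not stated. Gene model lengths are nearly all multiples of 3, so they are coding lengths. Positions and homolog names are those listed for these IDs by the study, on assembly v2.0. The reference table used here matched 0 of the IDs.

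Groups and replicate numbers were taken from the sample titles. The 6 members and all lists were chosen with earlier results of these data known. Expected counts were rounded, and a gene was tested if 3 or more libraries had 1 CPM or more, which held for 20253 genes over all libraries and for 18725 in dP2, 17452 in dP1 and 17616 in pP. Sets were compared in 1 fit of all 18 libraries with 6 groups, after TMM normalization, by the quasi-likelihood test of edgeR 4.0.16 in R 4.3.3, with Benjamini-Hochberg FDR called under 0.05. POP was compared with NPIP within the 6 libraries of a set, with the filter, normalization and threshold of the study. The test was again the quasi-likelihood test, whereas the study described a negative binomial model without naming that test. For the members that log2FC is given without a test. Each SE of an edgeR log2FC is its absolute value divided by the square root of the quasi-likelihood F statistic, so it is approximate. Where a group held 3 reads or fewer, the ratio of reads per total is given with its exact conditional interval. The scripts were tested on simulated data. The commands ran in Python 3.11.15 with numpy 2.4.6, pandas 2.3.3 and matplotlib 3.10.9.

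POP and NPIP of a set were cut from the same roots, and the replicate number was taken to pair them, which the libraries bear out for dP2 and dP1 but for only 1 of the 3 pP roots. Fits with the root as a block, also those between sets, use these numbers. Deviations from the group means of same-numbered libraries correlated at 0.545, 0.311 and 0.399 for the dP2 roots, at 0.346, 0.441 and 0.338 for the dP1 roots and at −0.242, 0.585 and −0.0912 for the pP roots. Across numbers, the first pP POP library correlated at 0.596 with the third NPIP library, and the third POP library at 0.434 with the first NPIP library. No 2 libraries were alike enough to be repeats of 1 library.

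Named are the 6 members, the other 8 WRKY genes that the study listed, and for each member the 3 genes with the smallest root mean square difference, of which those with a description and 2 others are printed. Among family genes called in all 3 sets, up to 3 per direction were to be named. The 4 that met this are all given. No NAC gene outside the members was described in the sources used here, so no count of NAC genes was made, nor of VQ genes, whose proteins bind WRKY factors. Cell type markers were the APL, KNAT7, IRX-like, pigment and MYB39 genes named in the report. Alternatives were RLE size factors, DESeq2 1.42.0, edgeR's likelihood ratio test, filterByExpr or no filter on low counts, unrounded counts, the libraries of 1 tissue alone, the root as a block (limma 3.58.1 between sets), other prior counts, deposited TPM with 0.1 added, and each library left out in turn.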

Additional observations from a re-analysis of the deposited data

How the results depend on the processing

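Of 255 alternative values of the members between sets, 244 kept their direction and side of the threshold. 7 lost a call, 2 gained one and 2 changed sign, both DCAR_016858 in POP of dP2 over pP, at 0.0307 with RLE size factors and 0.0314 with DESeq2 against −0.02. Members called in POP of dP2 over pP were 2 with the replicate block (root as a random effect), against 1. In POP of dP2 over dP1 there was 1 without a low-count filter, against 3. In NPIP of dP2 over pP there was 1 with that tissue alone, where the filter removed the WRKY65 homolog and DCAR_016858, and 1 with the replicate block, against 3. Values of genes removed by a filter are not among the 255. In NPIP of dP2 over dP1 there were 0 with that tissue alone and 1 with the replicate block, against 3. With that tissue alone, the filter removed the WRKY65 homolog and DCAR_016858, whereas DCAR_019896 was tested and lost its call. Among the 8 other WRKY genes, DESeq2 and the likelihood ratio test called 7 and 7 in dP2 against 4, and 8 and 8 in pP against 5. The block changed no other call than those given here and in the report.

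Without 1 library, the members called ranged between 0 and 1 in POP of dP2 over pP, 0 and 2 in POP of dP2 over dP1, and 0 and 3 in NPIP of dP2 over dP1. The other WRKY genes called ranged between 0 and 8 in dP2 and 1 and 6 in pP. In POP of dP1 over pP, the log2FC ranged between −0.37 and 0.37 for DCAR_026990, −0.62 and 0.15 for DCAR_005143, −0.67 and 0.17 for DCAR_005083 and −1.43 and 0.15 for DCAR_019896. In POP of dP2 over pP it ranged between −0.0925 and 0.43 for DCAR_005083 and −0.42 and 0.31 for DCAR_016858, and in POP of dP2 over dP1 between −0.0212 and 0.83 for DCAR_005083. In NPIP of dP1 over pP it ranged between −1.40 and 0.0490 for DCAR_026990, −0.28 and 1.89 for DCAR_016858 and −3.11 and 1.78 for DCAR_005143. The −3.11 is a fitted value with 0 reads left in dP1 NPIP without replicate 3, so it depends on the prior count and is no fold. The cause of these changes was not tested. All 18 values of POP over NPIP stayed above 0 under each alternative run, and 22 of 108 moved by more than 1 SD between roots, mostly with a larger prior count or with TPM. Inner phloem reads limit the precision: 3 reads or fewer per group leave intervals over 10-fold wide.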
